A study of Mus musculus with 6 samples.

Results

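The neurotrophin genes described here are 2 ligands, Bdnf and Ntf3, and 4 receptors, Ntrk2, Ntrk3, Ngfr and Sort1. They were taken by gene symbol, 6 of the 56884 genes counted in each of 6 single-cell libraries, and not by any measured value. The question was which cells of the mouse lung and cerebral cortex held the transcripts of ligands and receptors, and how these differed between control and mutant tissue. Lungs at postnatal day (P) 21 gave a Bdnf pair (control genotype Bdnf lox/lox, mutant Bdnf iPCKO) and a Hgf pair (Hgf lox/lox and, as the mutant, Hgf iPCKO). Cortex at P12 gave a Nodal pair of the same form (Nodal lox/lox, Nodal iPCKO). The iPCKO mice carry the lox-flanked allele together with Pdgfrb(BAC)-CreERT2, a transgene that expresses tamoxifen-dependent Cre in mural cells, which are pericytes and vascular smooth muscle cells. The controls lack CreERT2, and controls and mutants alike were given 50 µg of tamoxifen at each of the injections from P1 to P3. CD45+ blood cells and Ter119+ erythrocytes were depleted from the lung cells and myelin debris was removed from the cortex cells, so neither sample keeps the tissue's own proportions. Each library pooled 2 mice, which left 1 library per group. No test between groups was therefore possible, and every ratio below compares a pair of libraries.

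Neurotrophins are secreted growth factors made as longer precursors, which proprotein convertases cut behind a basic motif to release the mature factor. Mature BDNF binds the receptor tyrosine kinase TrkB (encoded by Ntrk2), and neurotrophin 3 (Ntf3) binds TrkC (Ntrk3). All neurotrophins bind p75NTR (Ngfr), which together with sortilin (Sort1) also binds the uncut precursors, and sortilin further sorts BDNF within the cells that make it. Ntrk2 and Ntrk3 each also encode short receptors without the kinase domain. In the brain BDNF is best known from excitatory neurons and short TrkB from astrocytes.

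On GRCm39 (Gencode vM39 annotation) Bdnf lies on the plus strand at chr2:109505045-109557475 and Ntf3 on the minus strand at chr6:126078375-126143873. The receptors lie at chr13:58954176-59281784 (Ntrk2, plus), chr7:77825707-78387760 (Ntrk3, minus), chr11:95459638-95478561 (Ngfr, minus) and chr3:108191285-108268842 (Sort1, plus). Short coding stretches from the same genome show what a count per gene sums over. The first pair holds the cut site of the precursors, with the 4 codons of the basic motif (an arginine, any residue, a lysine or arginine, and an arginine) in capitals. The motif ends at residue 130 of 249 in BDNF (chr2:109554117-109554146, plus strand) and at residue 152 of 271 in neurotrophin 3 (chr6:126079040-126079069, minus strand), and is followed by 119 residues in both.
Bdnf: atgtctatgAGGGTTCGGCGCcactccgac
Ntf3: acctcaccaCGGAGGAAACGCtatgcagaa
The next sequences show where the coding sequences of full-length and short receptors part, with the bases from the first difference on in capitals. Full-length TrkB has 821 residues and the short form 476, and their first 464 codons are identical. The next codon, GGC or GGT, encodes glycine in both, and 356 and 11 residues follow it.
Ntrk2 full length: tggcatgaaaggCCCAGCTTCGGTCATCAG
Ntrk2 short: tggcatgaaaggTTTTGTTTTGTTTCATAA
Full-length TrkC has 825 residues and the short form 612, with 528 shared.
Ntrk3 full length: agccagacacatATGTTCAGCACATCAAGA
Ntrk3 short: agccagacacatGGGTCTTTTCAAACATAG
The transcripts of both forms end 196943 bases apart in Ntrk2 and 124731 bases apart in Ntrk3. The libraries tag transcripts at the 3′ end, and the deposited counts sum all isoforms of a gene, so a count of Ntrk2 or Ntrk3 does not say which form of the receptor was made.

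A unique molecular identifier (UMI) stands for a captured transcript, and barcodes were kept as cells from 1500 UMIs on, or from 700 in the shallower Hgf libraries. This gave 17155 cells in the Bdnf control, 24311 in the Bdnf iPCKO, 14622 in the Hgf control, 16155 in the Hgf iPCKO, 3237 in the Nodal control and 5009 in the Nodal iPCKO library, at median depths of 2841 to 7790 UMIs. Cells were assigned to types by marker genes, none of them a member of the family, and each type name below means cells that resemble that type by its markers. Between 6.14 and 11.2% of the cells passed no gate or carried markers of several lineages. Library pairs shared 21 to 457 barcode sequences, which is 0.649 to 3.03% of the smaller library. Levels are UMIs of a gene per 1000000 UMIs of the same cells (CPM), with exact Poisson 95% intervals in parentheses or as error bars. These intervals, and those of ratios and shares, cover counting error only. Barcodes of 10 to 99 UMIs served as near-empty barcodes that carry free RNA. In 1 respect every mutant library stood apart from its control: Pdgfrb, the gene whose promoter drives the transgene, was higher in all of them, also in near-empty barcodes (13.3 against 42.7 CPM in the Bdnf pair, 14.6 against 91.9 CPM in the Hgf pair and 76.3 against 282 CPM in the Nodal pair). Its part in the values below was not tested.

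Bdnf, the targeted gene of the first pair, was mainly an alveolar type 1 (AT1) transcript in these lungs. AT1 cells are the flat epithelial cells that form the gas exchange surface. They had 189 (182 to 196) CPM in the Bdnf control and 273 (258 to 287) CPM in the Hgf control, and held 65.5 and 77.1% of all Bdnf UMIs of these libraries against 10.4 and 7.92% of all UMIs. Alveolar type 2 (AT2) cells, their surfactant-making neighbours, had 5.79 and 5.00 CPM. A Bdnf UMI was found in 56.9% of the 1583 AT1 cells of the Bdnf control (median depth 8294 UMIs), against 0.917% of general capillary endothelial cells (median 3740) and 2.65% of AT2 cells (median 8762). Thinned to 1500 UMIs per cell, the shares were 21.7, 0.371 and 0.551%. Apart from 24 cells that could not be told between myofibroblast and smooth muscle (243 CPM), no type of at least 20 cells had a higher level in the Bdnf control. AT1 cells thus stood far above AT2 and general capillary cells at equal depth.

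Cells that could not be told between AT1 and AT2 had 85.8 (75.9 to 96.6) CPM in the Bdnf control and 122 (98.6 to 150) CPM in the Hgf control. Among the other named types, the highest Bdnf levels were those of contractile mesenchymal cells. Alveolar myofibroblasts, which shape the septa between alveoli, had 78.5 (70.0 to 87.8) CPM in the Bdnf control and 57.3 (31.3 to 96.2) CPM in the Hgf control. Smooth muscle cells had 57.8 (42.1 to 77.3) and 42.8 (20.5 to 78.7) CPM. In the order of levels in the Bdnf control, AT1 cells were above myofibroblasts (log2 ratio 1.27, 1.10 to 1.44), myofibroblasts and smooth muscle cells did not differ beyond counting error (0.44, -0.01 to 0.93), and smooth muscle cells were above pericytes (1.40, 0.48 to 2.41). Pericytes had 22.0 (11.7 to 37.6) CPM, from 13 UMIs in 8 of 137 cells. In the Hgf control the 94 pericytes held 1 Bdnf UMI, or 5.38 (0.136 to 30.0) CPM. Near-empty barcodes had 32.4 and 32.1 CPM in these libraries, above the pericyte levels. In the Bdnf control they were also above general capillary cells (2.74 CPM) and AT2 cells (5.79 CPM). The level of near-empty barcodes is thus not that of free RNA within those cells. Pericytes of the Bdnf control were 8.03-fold above general capillary cells and 3.80-fold above AT2 cells, both beyond counting error. Of their 13 UMIs, 5 came from the 88 pericytes with the lowest share of smooth muscle markers. None came from the next 28, and the rest from the 21 pericytes nearest smooth muscle. These folds thus rest largely on cells at the border between the types. Pericytes of the Hgf control, with 1 UMI, did not differ from general capillary or AT2 cells beyond counting error. The part of free RNA in the pericyte levels was not tested.

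**Figure D1:**
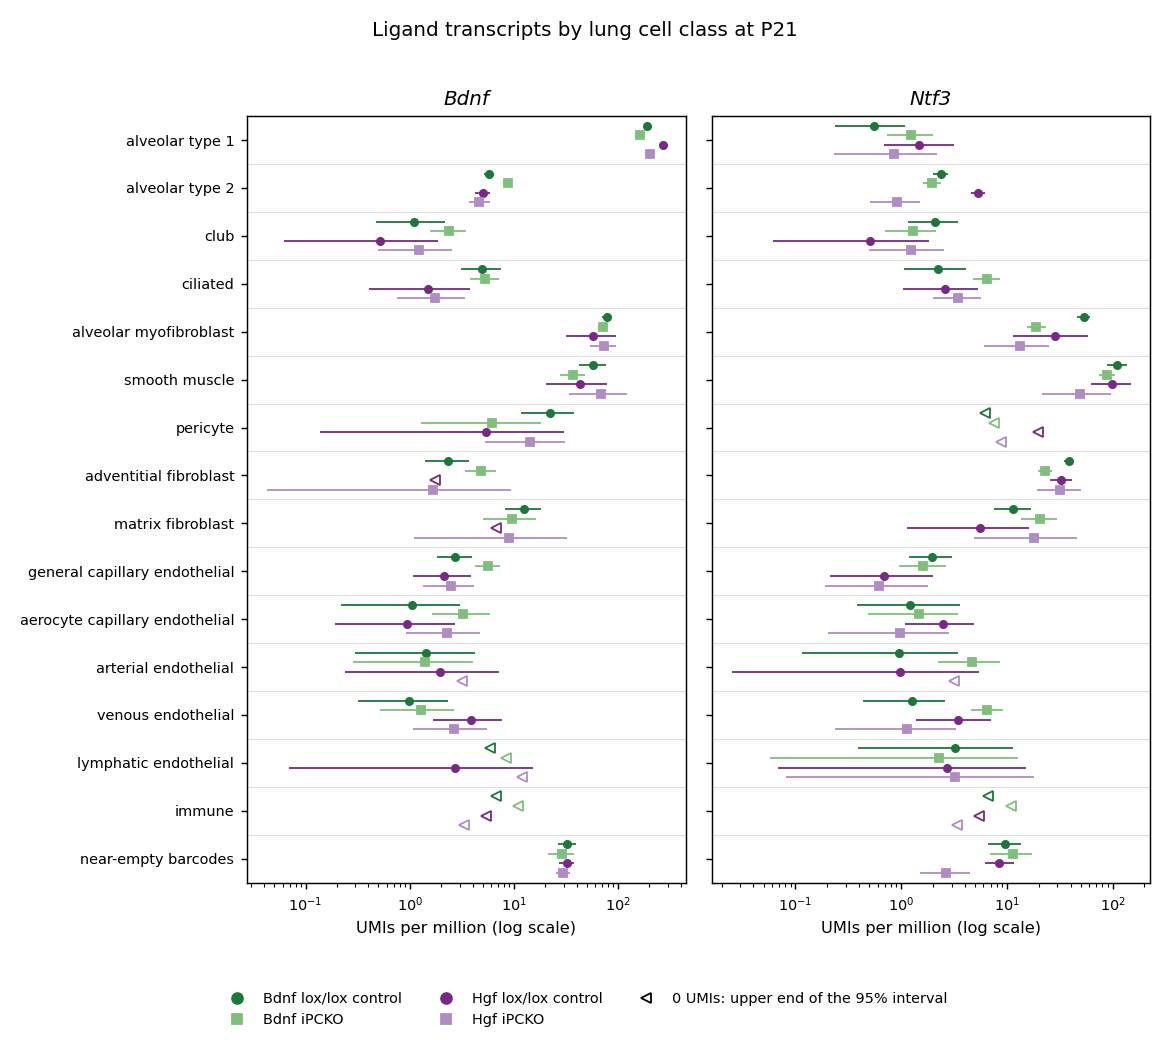
Bdnf and Ntf3 in the 4 lung libraries, in CPM on a log axis, by cell type. Points are libraries with exact Poisson 95% intervals, and open triangles mark 0 UMIs, drawn at the upper end of the interval. Bdnf is highest in AT1 cells (162 to 273 CPM) and Ntf3 in smooth muscle cells (49.5 to 110 CPM).

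In mutant lungs Bdnf stayed highest in AT1 cells, which are no target of the transgene. It was 162 (155 to 168) CPM in the Bdnf iPCKO, a log2 ratio to control of -0.22 (-0.30 to -0.14), and 201 (188 to 214) CPM in the Hgf iPCKO, a log2 ratio of -0.44 (-0.56 to -0.32). The control lungs, which have no deletion, differed from each other by 0.53 (0.44 to 0.63), more than either. They also differ in depth and depth limit, so this value does not measure the spread within a pair. Myofibroblasts had 71.5 (64.1 to 79.5) CPM in the Bdnf iPCKO and 72.4 (53.6 to 95.7) CPM in the Hgf iPCKO, with intervals of the log2 ratio that include 0 in both pairs (-0.13, -0.36 to 0.09, and 0.34, -0.54 to 1.31).

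Pericytes and smooth muscle cells of the lung gave few Bdnf UMIs. Cre is expressed in pericytes and vascular smooth muscle, but the smooth muscle markers used here do not part vascular from airway cells. The paper cites earlier work in which the transgene did not label bronchial smooth muscle. The smooth muscle type of the lung may thus include cells that Cre does not reach. In smooth muscle cells Bdnf was 57.8 CPM in the control against 36.9 (27.8 to 48.2) CPM in the Bdnf iPCKO (45 and 54 UMIs, log2 ratio -0.65, -1.24 to -0.04). This ratio was -0.20 with a mitochondrial share of at most 20%, -0.41 without Scrublet doublets and -1.83 with cells named by Leiden clusters in place of the gate, so its size depended on which cells were kept. Smooth muscle cells of the Hgf pair had 42.8 CPM (control) and 68.1 (34.0 to 122) CPM (mutant) (log2 ratio 0.67, -0.71 to 2.06). Pericytes of the Bdnf iPCKO held 3 UMIs in 150 cells, or 6.16 (1.27 to 18.0) CPM, against 22.0 CPM in the control. That log2 ratio of -1.83 turned to 0.29 when cells with markers of several lineages were kept, and was -0.22 with Leiden clusters. Pericytes of the Hgf iPCKO had 14.3 (5.26 to 31.2) CPM from 6 UMIs in 248 cells. Whether the reads cover the deleted part of the allele is not known, since the lox-flanked exons are not named in the sources used here, so these values do not check the deletion.

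Because pericytes and smooth muscle cells share markers, mural cells were also divided by the share of smooth muscle markers in their mural score. In the lung the smooth muscle end of this scale may include airway smooth muscle. In the Bdnf control, cells with a share below 0.1 had 13.1 (4.26 to 30.6) CPM of Bdnf. Those with a share of 0.3 to 0.7 had 69.6 (34.8 to 125) CPM and those with at least 0.9 had 62.3 (41.4 to 90.0) CPM. The bin of 0.1 to 0.3 held none in 28 cells, so the levels were low below a share of 0.3 and did not rise further above it. In the Hgf control the bins had 0, 11.9, 70.4, 36.9 and 27.2 CPM in the order of the share, from at most 5 UMIs each. In the Bdnf iPCKO the lowest bin held no UMI in 91 cells and the bin of 0.1 to 0.3 held 3 in 45 cells, at 18.6 (3.84 to 54.5) CPM. The bin of 0.3 to 0.7 held none in 42 cells, and the bin of 0.7 to 0.9 had 3.98 (0.101 to 22.2) CPM against 56.9 (32.5 to 92.4) CPM in the control. The top bin had 44.9 (33.7 to 58.8) CPM. In the Hgf iPCKO the bins of 0.3 to 0.7 and 0.7 to 0.9 had 95.1 (25.9 to 244) and 89.1 (24.3 to 228) CPM, each from 4 UMIs in 24 and 25 cells.

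**Figure D2:**
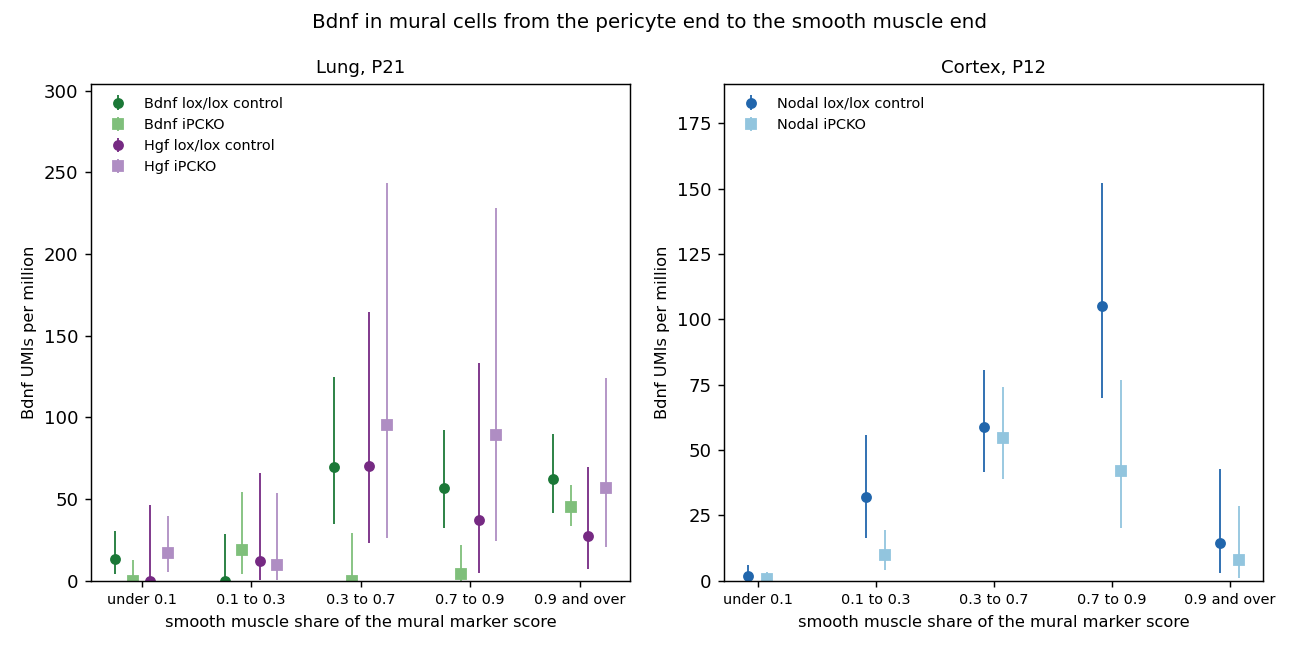
Bdnf in mural cells of the 6 libraries, in CPM, against the share of smooth muscle markers in the mural score. In the lung the smooth muscle end may include airway smooth muscle. Points are bins of cells with exact Poisson 95% intervals. In both cortex libraries the level is highest between pericyte and smooth muscle ends of the scale, at 105 CPM in the Nodal control and 54.6 CPM in the Nodal iPCKO.

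By cell type, Bdnf in the cortex was highest in vascular smooth muscle cells and neurons. Vascular smooth muscle cells had 76.5 (57.8 to 99.4) CPM in the Nodal control and 57.4 (41.5 to 77.3) CPM in the Nodal iPCKO (log2 ratio -0.42, -1.02 to 0.18). Those with a smooth muscle share of at least 0.9 had 14.6 (3.01 to 42.7) CPM in the control, from 3 UMIs in 21 cells, and 7.94 (0.962 to 28.7) CPM in the mutant, from 2 UMIs in 34 cells. At a share of 0.7 to 0.9 the values were 105 (69.9 to 152) and 41.9 (20.1 to 77.0) CPM, so the level of the type came from cells nearer the pericyte end. Neurons had 38.7 (29.9 to 49.3) and 34.2 (29.6 to 39.5) CPM. Neurons with more UMIs of Slc17a7, a vesicular glutamate transporter, than of Gad1, an enzyme of GABA synthesis, held 64 of the 66 neuronal UMIs of the control and 184 of 190 in the mutant. Their levels were 60.2 (46.4 to 76.9) and 42.9 (36.9 to 49.6) CPM. Neurons with more Gad1 held no Bdnf UMI in 19 cells of the control and 1 in 45 cells of the mutant. The 0 UMIs of the control allow up to 8.11 CPM by the exact interval. Most neuronal Bdnf UMIs were thus in neurons of the excitatory type, while neurons as a whole held 34.2% of the Bdnf UMIs of the control, vascular smooth muscle cells 29.0% and astrocytes 19.2%. Their shares of all UMIs were 5.64, 2.42 and 24.7%. In the Nodal iPCKO they held 58.1, 13.1 and 17.4% of the Bdnf UMIs, against 11.3, 1.53 and 18.1% of all UMIs.

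Cortical pericytes had less Bdnf than either. They had 10.8 (6.52 to 16.9) CPM in the control, from 19 UMIs in 13 of 294 cells, and 4.40 (2.27 to 7.68) CPM in the Nodal iPCKO. The log2 ratio was -1.30 (-2.47 to -0.18) with the marker gate and 0.93 with Leiden clusters, so its sign depended on which cells were named pericytes. Within the mural cells of the control, the 214 cells with a smooth muscle share below 0.1 had 1.69 (0.204 to 6.10) CPM, and the 55 cells from 0.1 to 0.3 had 31.9 (16.5 to 55.7) CPM. Endothelial cells and microglia were near the lower limit, with 0.107 and 0.179 CPM in the control. Near-empty barcodes had 3.60 CPM (control) and 13.2 CPM (mutant).

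Ntf3, the ligand of TrkC, had its highest levels per UMI in mesenchymal cells of the lung. Smooth muscle cells had 110 (88.3 to 136) CPM in the Bdnf control, 88.3 (73.7 to 105) CPM in the Bdnf iPCKO, 98.5 (62.4 to 148) CPM in the Hgf control and 49.5 (21.4 to 97.6) CPM in the Hgf iPCKO. Both log2 ratios to control had intervals that include 0 (-0.32, -0.73 to 0.09, and -0.99, -2.36 to 0.22). In the Bdnf control smooth muscle cells were above myofibroblasts (log2 ratio 1.05, 0.67 to 1.41), and these above adventitial fibroblasts (0.47, 0.21 to 0.73), the fibroblasts around large vessels and airways. With Leiden clusters smooth muscle cells had 79.2 CPM. In pericytes no Ntf3 UMI was found in any of the 4 lung libraries, in 137, 150, 94 and 248 cells, for which the exact Poisson intervals end at 6.23, 7.57, 19.8 and 8.82 CPM. By number of UMIs, adventitial fibroblasts held 33.6% of the Ntf3 of the Bdnf control and AT2 cells 15.2%, whereas in the Hgf control AT2 cells held 49.0% and adventitial fibroblasts 21.6%. AT2 cells made up 42.3 and 46.8% of all UMIs of these libraries. Ntf3 and Bdnf thus differed in AT1 cells, where Ntf3 had 0.548 to 1.49 CPM over the 4 libraries.

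Myofibroblasts showed the largest Ntf3 difference of a class with over 50 UMIs in both Bdnf libraries. Ntf3 was 53.4 (46.5 to 61.3) CPM in the Bdnf control and 19.0 (15.4 to 23.5) CPM in the Bdnf iPCKO, a log2 ratio of -1.49 (-1.85 to -1.12), and 15.7 and 5.24% of the cells had a UMI (7.31 and 2.86% after thinning). Adventitial fibroblasts had 38.6 (34.4 to 43.1) and 22.8 (19.5 to 26.5) CPM, a log2 ratio of -0.76 (-1.03 to -0.49). Myofibroblasts of the Hgf pair had 28.7 (11.5 to 59.1) and 13.3 (6.08 to 25.2) CPM from 7 and 9 UMIs, and adventitial fibroblasts 32.8 (25.6 to 41.5) and 31.8 (19.2 to 49.7) CPM. The control lungs differed in myofibroblasts by -0.90 (-2.23 to 0.17) on the log2 scale. Near-empty barcodes of the Bdnf pair had 9.68 and 11.4 CPM. The part of free RNA in the myofibroblast difference was not tested.

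The Hgf pair had its largest Ntf3 difference, among types with 20 UMIs, in AT2 cells, at 5.33 (4.54 to 6.23) CPM in the control against 0.908 (0.508 to 1.50) CPM (159 and 15 UMIs, log2 ratio -2.55, -3.42 to -1.79). These levels are low, with a UMI in 2.28 and 0.329% of cells, near-empty barcodes had 8.50 and 2.67 CPM, and all kept cells together 5.09 and 1.93 CPM. The Bdnf control had 2.37 CPM in AT2 cells, so the control lungs also differed (log2 ratio 1.17, 0.84 to 1.51). In venous endothelial cells Ntf3 was 1.25 CPM in the Bdnf control and 6.48 (4.60 to 9.09) CPM in the Bdnf iPCKO (6.33 and 35.5 estimated UMIs, log2 ratio 2.37, 1.21 to 4.00). In the cortex, vascular smooth muscle cells had 29.4 (18.8 to 45.5) CPM in the control and 13.3 (6.40 to 24.5) CPM in the Nodal iPCKO, and neurons 8.80 and 2.52 CPM from 15 and 14 UMIs. Taken as a type, smooth muscle cells thus held both ligands in cortex and lung, though the lung type may include airway smooth muscle. In cells with a smooth muscle share of at least 0.9, Bdnf was 14.6 CPM in the Nodal control (3 UMIs). In the lung it was 62.3 CPM in the Bdnf control and 27.2 CPM in the Hgf control (28 and 4 UMIs).

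Ntrk2, which encodes the BDNF receptor TrkB, was highest in adventitial fibroblasts of the lung. They had 244 (234 to 255) CPM in the Bdnf control, 231 (221 to 242) CPM in the Bdnf iPCKO, 129 (114 to 145) CPM in the Hgf control and 174 (142 to 211) CPM in the Hgf iPCKO. The log2 ratio to control was -0.08 (-0.17 to 0.01) in the Bdnf pair and 0.44 (0.10 to 0.77) in the Hgf pair, while the control lungs differed by -0.92 (-1.11 to -0.74). A UMI was found in 67.1% of adventitial fibroblasts of the Bdnf control at a median depth of 11312 UMIs, against 0.965% of AT2 cells at 8762 (25.4 and 0.179% after thinning). Matrix fibroblasts, the fibroblasts of the alveolar wall, had only 6.23 CPM there, so Ntrk2 was 39.2-fold higher in adventitial fibroblasts (log2 ratio 5.29, 4.54 to 6.17). The fold was 19.8 in the Bdnf iPCKO (4.31, 3.60 to 5.12) and 35.0 in the Hgf control (5.13, 3.26 to 8.18), where matrix fibroblasts held 2 UMIs. Matrix fibroblasts of the Hgf iPCKO held none, and with this 0 set to 3 UMIs the fold was 12.9, a value without an interval. Ntrk2 thus parted the fibroblast types of the lung.

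**Figure D3:**
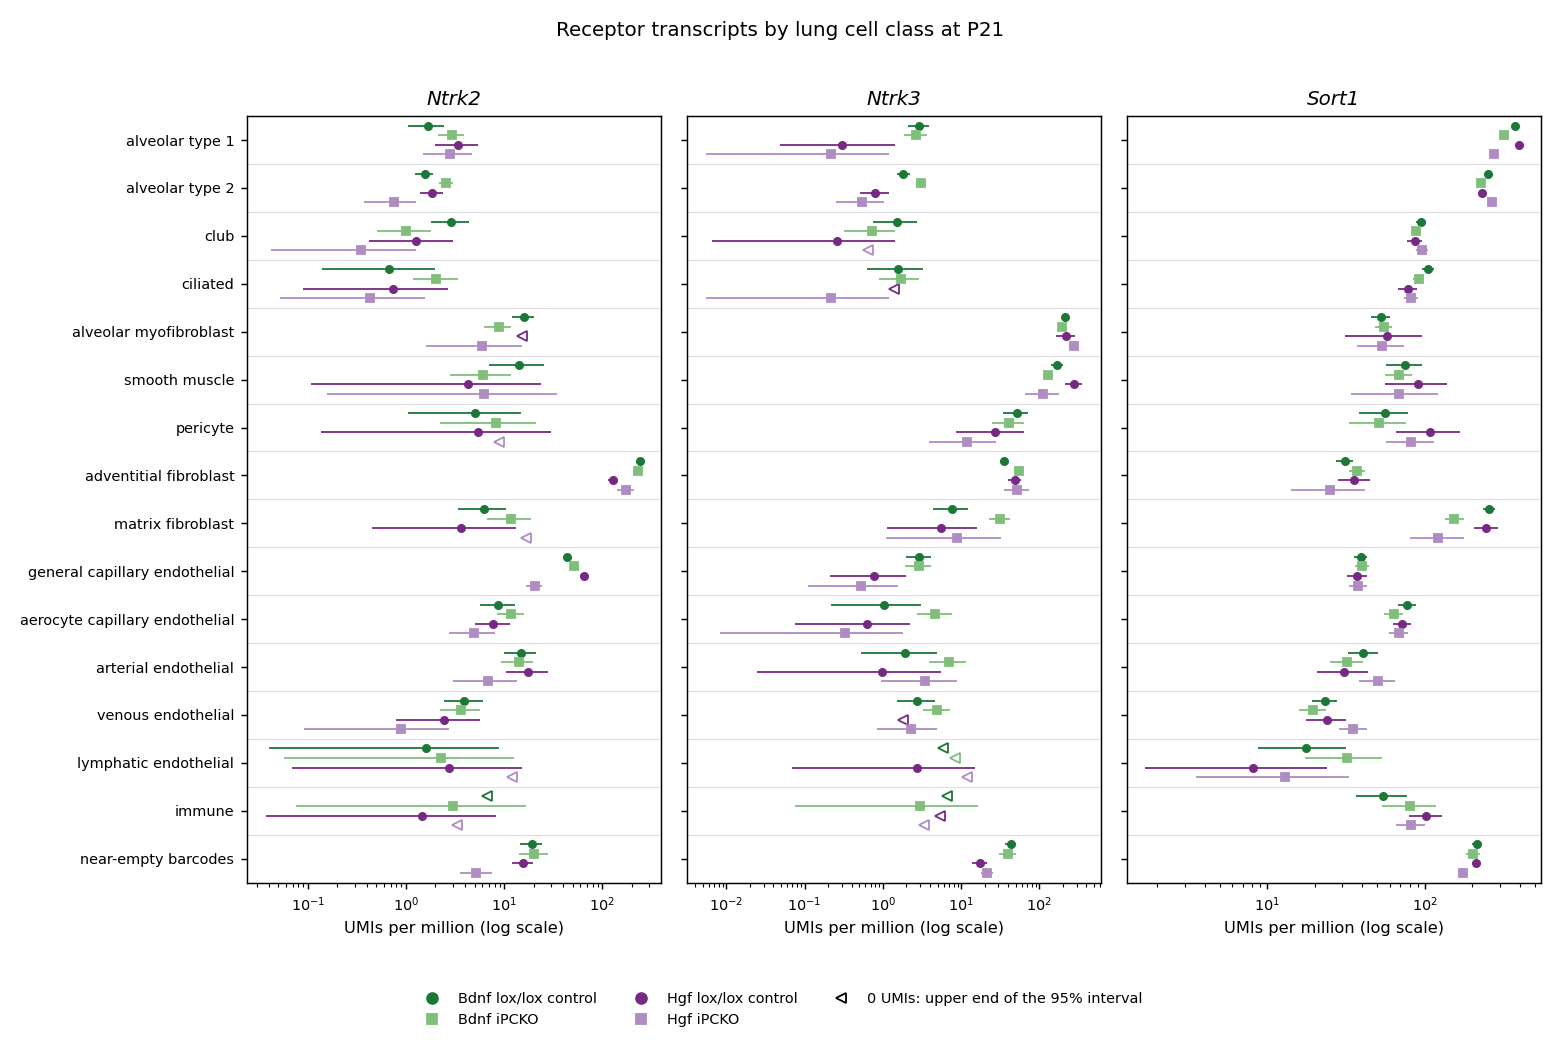
Ntrk2, Ntrk3 and Sort1 in the 4 lung libraries, in CPM on a log axis, by cell type. Points are libraries with exact Poisson 95% intervals, and open triangles mark 0 UMIs at the upper end of the interval. Ntrk2 is highest in adventitial fibroblasts (129 to 244 CPM) and, among endothelial cells, in general capillary cells (20.5 to 65.8 CPM).

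Among lung endothelial cells, Ntrk2 was higher in general capillary cells, the capillary type that also serves as a progenitor, than in the other named subtypes together. They had 44.1 (40.1 to 48.3) CPM in the Bdnf control, 51.9 (47.4 to 56.6) CPM in the Bdnf iPCKO, 65.8 (59.0 to 73.2) CPM in the Hgf control and 20.5 (16.9 to 24.6) CPM in the Hgf iPCKO. The endothelial cells of the other named subtypes had 7.19, 7.93, 7.37 and 3.53 CPM in the same order, and general capillary cells were 6.13-, 6.54-, 8.93- and 5.80-fold above them. Endothelial cells of no resolved subtype had 23.3, 45.8, 45.5 and 8.06 CPM, which in the Bdnf iPCKO came near the general capillary level. Their leading genes included Gja4 in the Bdnf iPCKO and Hey1 and Sox17 in the Hgf control, all arterial markers of the gate. With the unresolved cells included among the other cells, which are mostly of low level, the folds were 4.59, 3.91, 4.87 and 4.54. Among the named subtypes, arterial cells had 14.8 CPM in the Bdnf control, aerocytes (the capillary cells beside AT1 cells) 8.73 CPM and venous cells 3.86 CPM. General capillary cells were therefore above the other named subtypes together in all 4 lungs, at a lower level in the Hgf iPCKO.

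In the Bdnf pair the general capillary level of Ntrk2 differed by a log2 ratio of 0.23 (0.05 to 0.42). The control lungs, which also differ in depth, differed more, by 0.58 (0.37 to 0.79). Between the Hgf libraries the level was 65.8 and 20.5 CPM from 338 and 116 UMIs, a log2 ratio of -1.68 (-2.00 to -1.38). A Ntrk2 UMI was found in 10.9 and 3.70% of the general capillary cells at medians of 1818 and 1794 UMIs, and in 4.32 and 1.38% after thinning to 700 UMIs. In AT2 cells, which had 1.85 and 0.747 CPM of Ntrk2, the share was 0.753 and 0.282%. Near-empty barcodes had 15.6 (12.1 to 19.5) and 5.23 (3.52 to 7.55) CPM, so free Ntrk2 RNA was lower in the Hgf iPCKO as well. Over all endothelial cells Ntrk2 was 34.1 and 10.6 CPM, while in adventitial fibroblasts of this pair it was higher in the mutant. The part of free RNA in these values was not tested.

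**Figure D4:**
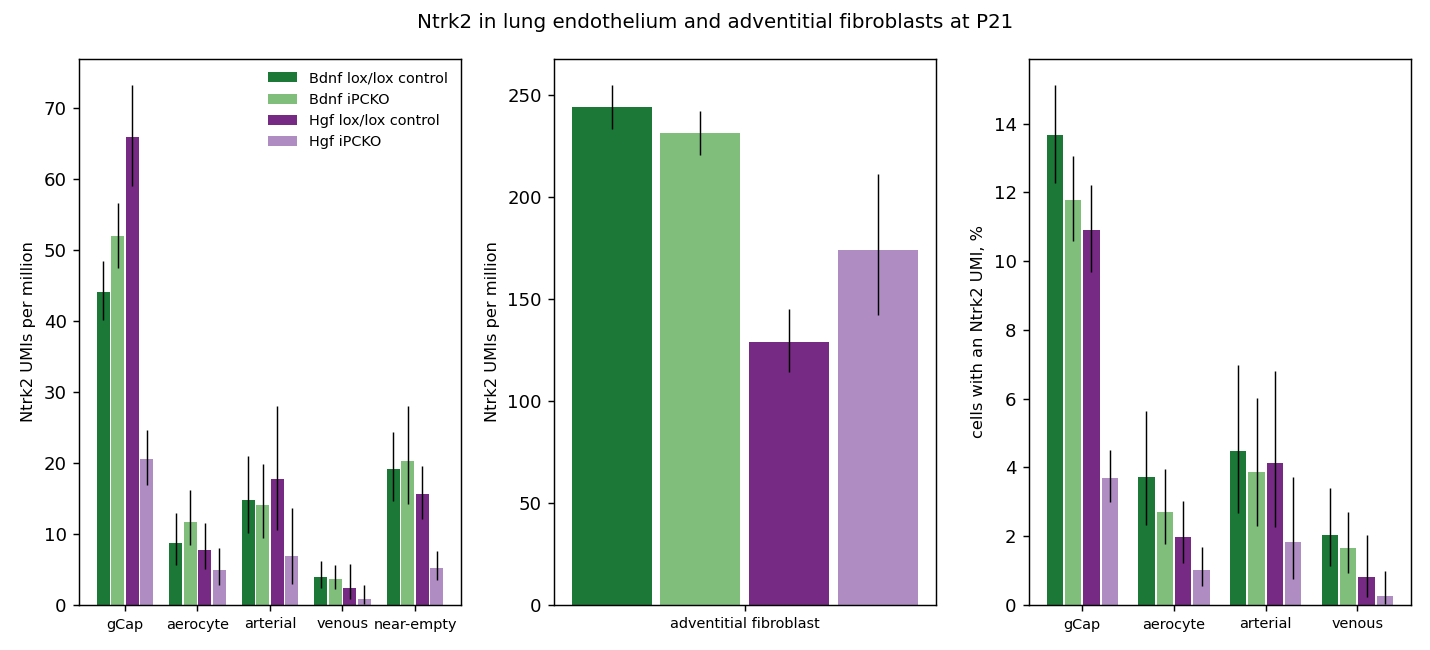
Ntrk2 in the 4 lung libraries. The first panel gives CPM in endothelial types and near-empty barcodes, the second CPM in adventitial fibroblasts and the third the percent of cells with a Ntrk2 UMI; bars start at 0 and error bars are exact 95% intervals. General capillary cells of the Hgf iPCKO have 20.5 CPM against 44.1 to 65.8 CPM in the other lungs.

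In the cortex Ntrk2 was an astrocyte transcript. Astrocytes had 1116 (1092 to 1140) CPM in the Nodal control and held 86.6% of its Ntrk2 UMIs against 24.7% of all UMIs. In the Nodal iPCKO they had 1229 CPM, a log2 ratio of 0.14 (0.10 to 0.18), with a UMI in 96.6 and 96.7% of cells (77.1 and 79.6% after thinning). Neurons had 482 (450 to 516) and 530 (511 to 549) CPM, less than astrocytes (log2 ratio 1.21, 1.11 to 1.32 in the control). Unlike Bdnf, Ntrk2 was found in both kinds of neurons, at 366 (331 to 404) CPM where Slc17a7 was higher and 706 (631 to 787) CPM where Gad1 was higher in the control. The few oligodendrocyte precursors had 203 and 305 CPM (8 and 26 cells).

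The cortical vessels had little Ntrk2. Endothelial cells had 3.97 (2.79 to 5.47) CPM in the control and 2.65 (1.91 to 3.53) CPM in the Nodal iPCKO, with a UMI in 4.32 and 2.59% of cells, below the 212 and 194 CPM of near-empty barcodes. Cortical endothelial cells, not divided into subtypes, thus lacked the level that lung general capillary cells had. The other named lung endothelial subtypes together had only 3.53 to 7.93 CPM. The tissues also differ in age and in how their cells were released. Pericytes had 28.5 (21.1 to 37.6) CPM in the control but 11.4 (7.72 to 16.1) CPM in the Nodal iPCKO (50 and 31 UMIs, log2 ratio -1.33, -2.02 to -0.65). Fibroblasts had 32.2 and 28.1 CPM. The part of free RNA in these pericyte values was not tested.

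**Figure D5:**
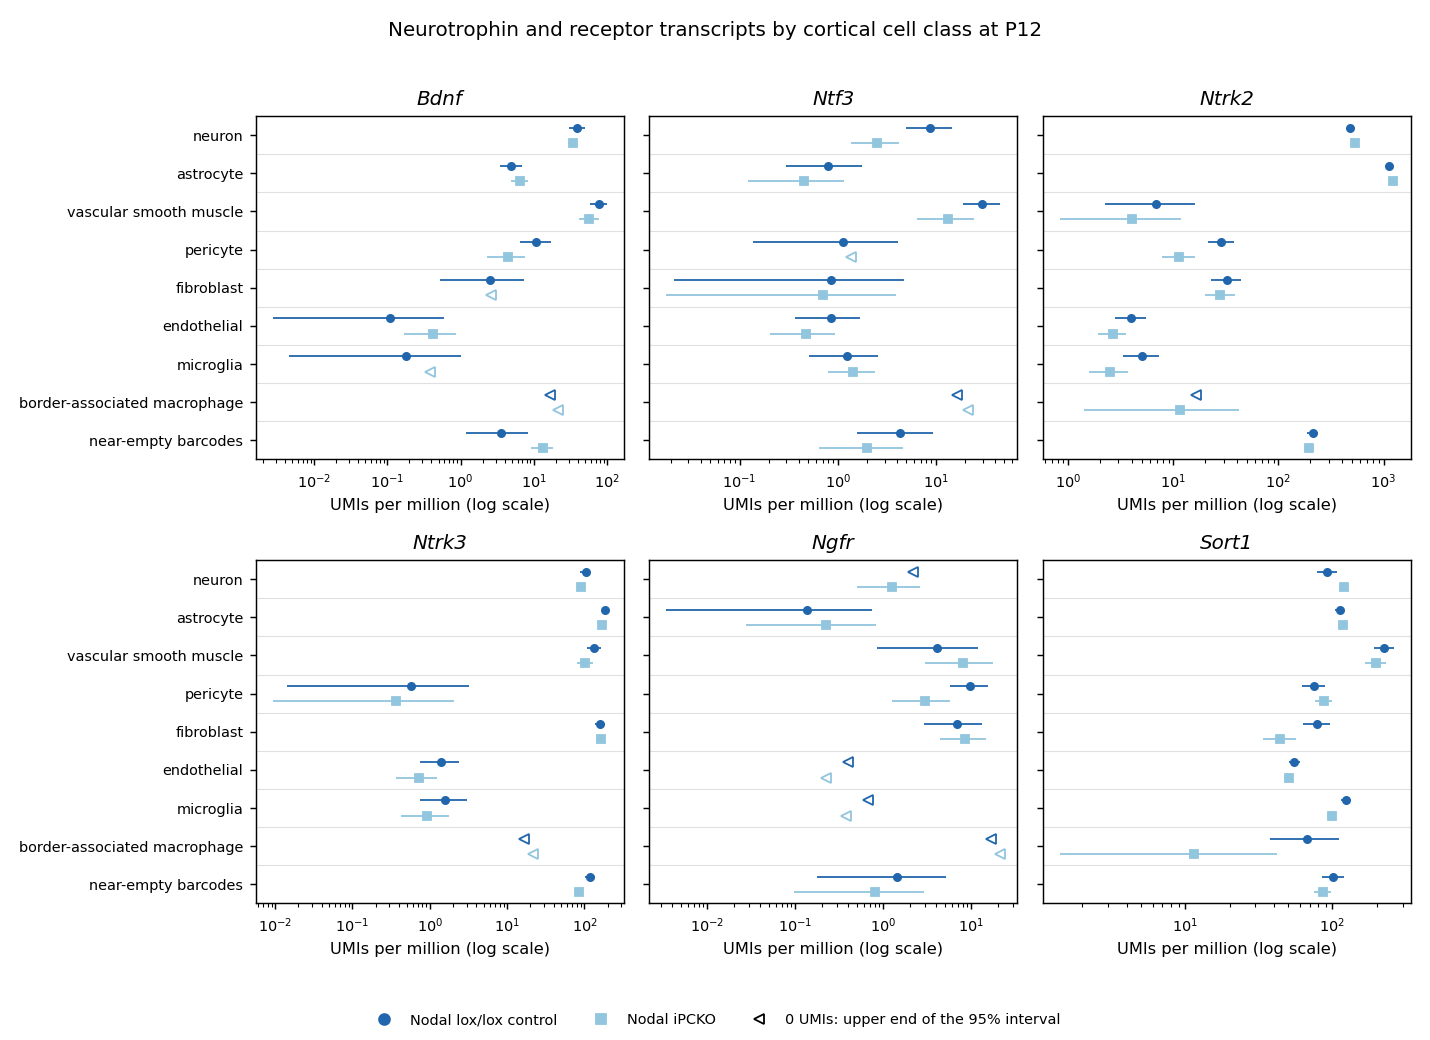
The 6 genes in the Nodal control and Nodal iPCKO cortex, in CPM on a log axis, by cell type. Points are libraries with exact Poisson 95% intervals, and open triangles mark 0 UMIs at the upper end of the interval. Ntrk2 reaches 1116 and 1229 CPM in astrocytes and Bdnf 76.5 and 57.4 CPM in vascular smooth muscle.

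Ntrk3, which encodes TrkC, was found in lung in the mesenchymal cells that also held its ligand. Alveolar myofibroblasts had 212 (198 to 227) CPM in the Bdnf control, 196 (183 to 209) CPM in the Bdnf iPCKO, 217 (163 to 284) CPM in the Hgf control and 277 (240 to 320) CPM in the Hgf iPCKO. Smooth muscle cells had 167 (139 to 198), 130 (112 to 150), 274 (211 to 350) and 111 (66.0 to 176) CPM in the same order. Myofibroblasts did not differ beyond counting error between the members of a pair (log2 ratio -0.11, -0.25 to 0.02, and 0.35, -0.09 to 0.82), while smooth muscle cells were lower in the Hgf iPCKO (64 and 18 UMIs, log2 ratio -1.30, -2.14 to -0.53). Of the 1003 myofibroblasts of the Bdnf control, 157 had a Ntf3 UMI, 451 a Ntrk3 UMI and 78 both.

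Pericytes had a lower Ntrk3 level than smooth muscle cells in every lung, at 51.4 (34.2 to 72.4), 41.0 (25.1 to 63.4) and 26.9 (8.74 to 62.8) CPM in the first 3 libraries of that order and 5 UMIs in 248 cells of the Hgf iPCKO. In the Bdnf control they did not differ beyond counting error from adventitial fibroblasts (log2 ratio 0.54, -0.07 to 1.07), which had 35.2 (31.3 to 39.6) CPM. Adventitial fibroblasts had 55.2 (50.0 to 60.7) CPM in the Bdnf iPCKO, a log2 ratio of 0.65 (0.43 to 0.87). Of the 680 adventitial fibroblasts of the Bdnf control, 456 had a Ntrk2 UMI, 172 a Ntrk3 UMI and 115 both. Whether these genes share cells more often than by chance was not tested. Matrix fibroblasts had 7.56 (4.40 to 12.1) CPM in the Bdnf control and 31.4 (22.7 to 42.3) CPM in the Bdnf iPCKO (17 and 43 UMIs, log2 ratio 2.05, 1.21 to 2.96). Those of the Hgf pair held 3 and 2 UMIs, too few for a comparison. Free Ntrk3 RNA in near-empty barcodes was 43.1 and 39.3 CPM in the Bdnf pair.

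In the cortex Ntrk3 was shared by astrocytes, fibroblasts, vascular smooth muscle cells and neurons. In the Nodal control these had 185 (175 to 195), 157 (136 to 182), 134 (109 to 163) and 103 (88.6 to 120) CPM. In the Nodal iPCKO they had 170, 161, 103 and 91.4 CPM, and of these types only astrocytes had an interval of the log2 ratio that excludes 0 (-0.12, -0.22 to -0.01). The oligodendrocyte precursors of the mutant had 207 CPM in 26 cells. Cortical pericytes held 1 Ntrk3 UMI in 294 cells of the control and 1 in 433 cells of the mutant, or 0.570 and 0.367 CPM. Vascular smooth muscle was 235-fold above pericytes in the control, with a wide counting interval (log2 ratio 7.88, 5.36 to 13.19). Ntrk3 thus separated the mural types of the cortex more sharply than Bdnf did. Of 738 astrocytes of the control, 713 had a Ntrk2 UMI, 528 a Ntrk3 UMI and 523 both, which was not tested against chance.

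Ngfr, which encodes p75NTR, was nearly silent in the lung. All kept cells together held 201 UMIs in the Bdnf control, 102 in the Bdnf iPCKO, 12 in the Hgf control and 16 in the Hgf iPCKO. In the Bdnf control 138 of these came from 2 of 14 cells in the neuroendocrine gate, 95 of them from a single barcode with 139615 UMIs. That barcode also held 68 Ntrk3 and 294 Slc5a7 UMIs and none of Calca, a neuroendocrine marker of the gate. Slc5a7 encodes the choline transporter of cholinergic neurons. The Bdnf iPCKO library had 1 such barcode with 53645 UMIs, 22 of Ngfr, 56 of Ntrk3, 70 of Slc5a7 and none of Calca. These barcodes were singled out after their values were seen, and the label neuroendocrine goes against their genes.

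Elsewhere in the lung Ngfr was found in Schwann cells, the glia of nerves, with 8 UMIs in 28 cells of the Bdnf iPCKO and 8 in 12 cells of the Hgf iPCKO, and none in 12 and 4 cells of the controls. Adventitial fibroblasts had 1.73 (0.946 to 2.90), 0.918, 4.22 (1.93 to 8.01) and 5.03 CPM in the 4 libraries. Ciliated cells had 4.02 (2.38 to 6.35) and 2.98 (1.89 to 4.47) CPM in the Bdnf pair and no UMI in 277 and 561 cells of the Hgf pair. General capillary cells with an Ngfr UMI numbered 1, 1, 0 and 0, too few to ask whether Ntrk2 and Ngfr share cells. In the cortex, 17 of 31 Ngfr UMIs of the Nodal control came from pericytes, at 9.68 (5.64 to 15.5) CPM. The Nodal iPCKO pericytes had 2.93 (1.27 to 5.78) CPM from 8 UMIs (log2 ratio -1.72, -3.14 to -0.43), against 6.77 and 8.42 CPM in fibroblasts. Lung pericytes held 0, 0, 1 and 1 Ngfr UMIs, from smaller totals: the exact intervals of the counts of 0 end at 6.23 and 7.57 CPM, and the single UMIs are 5.38 (0.136 to 30.0) and 2.39 (0.0605 to 13.3) CPM. A difference between the tissues was not tested.

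Sort1, which encodes sortilin, was the most widely found of the 6 genes, with at least 20 UMIs in 19 of 19 lung types of the Bdnf pair and 17 of 18 of the Hgf pair. It was highest in AT1 cells of all 4 lungs. AT1 cells had 371 (361 to 381) CPM in the Bdnf control, 317 (308 to 326) CPM in the Bdnf iPCKO, 394 (377 to 411) CPM in the Hgf control and 274 (259 to 289) CPM in the Hgf iPCKO. AT2 cells had 253 (249 to 257), 227 (223 to 231), 230 (225 to 236) and 265 (257 to 273) CPM in the same order. AT1 cells were above AT2 cells in both controls (log2 ratio 0.55 and 0.77), while in the Hgf iPCKO they did not differ beyond counting error (0.05, -0.04 to 0.14). The AT1 cells that held Bdnf mostly held Sort1 too: of 900 with a Bdnf UMI in the Bdnf control, 842 also had a Sort1 UMI, where 90.0% of all AT1 cells had one. Near-empty barcodes had 175 to 215 CPM in the 4 lungs.

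Matrix fibroblasts had less Sort1 in the mutant of both lung pairs. They had 256 (235 to 277) and 154 (134 to 176) CPM in the Bdnf pair (log2 ratio -0.73, -0.97 to -0.50) and 245 (205 to 290) and 121 (80.0 to 177) CPM in the Hgf pair (-1.01, -1.67 to -0.41). Matrix fibroblasts of the Hgf iPCKO were shallow, with a median of 1158 UMIs against 1788 in the control. Thinned to 700 UMIs, the shares of cells with a UMI in the Hgf pair were 14.5 and 8.15%. Among endothelial cells, aerocytes had 77.2 (67.4 to 88.1) CPM in the Bdnf control and general capillary cells 39.1 (35.4 to 43.1) CPM, the opposite order to Ntrk2. Aerocytes were above general capillary cells in all 4 lungs (log2 ratio 0.98, 0.67, 0.95 and 0.85 in the order Bdnf control, Bdnf iPCKO, Hgf control and Hgf iPCKO). General capillary cells differed by 0.03 in both pairs.

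In the cortex Sort1 was highest in vascular smooth muscle cells, at 224 (191 to 261) CPM in the Nodal control and 198 (167 to 232) CPM in the Nodal iPCKO. These cells were above microglia (log2 ratio 0.85, 0.60 to 1.10) and above pericytes (1.59, 1.25 to 1.93) in the control. Microglia had 124 (115 to 134) and 98.6 (92.4 to 105) CPM, astrocytes 112 and 118 CPM, pericytes 74.6 (62.4 to 88.6) and 87.3 (76.5 to 99.1) CPM and endothelial cells 55.1 and 50.4 CPM. Fibroblasts had 78.7 (63.5 to 96.4) and 44.2 (34.0 to 56.6) CPM, a log2 ratio of -0.83 (-1.32 to -0.36). Vascular smooth muscle cells, which also had the highest Bdnf and Ntf3 levels of the cortical types in both libraries, had low Ntrk2 (6.83 and 4.00 CPM).

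Counts over all types set these differences beside those of all genes. In the Bdnf pair, 65 combinations of a member and a type of at least 20 cells had at least 20 UMIs in both libraries together. Of these, 7 were at least 2-fold higher and 3 at least 2-fold lower in the mutant, beside 3.17 and 2.4% of all genes. The shares of all genes were called with a small constant added to each count, and the members without it. Members close to the limit, such as Sort1 in matrix fibroblasts of the Hgf pair (log2 ratio -1.01), could therefore be called differently. The same holds for Ntrk2 in microglia of the Nodal pair. Of the 7 higher, 3 were Bdnf itself. In general capillary cells it was 2.74 and 5.63 CPM (log2 ratio 1.04, 0.34 to 1.74). In adventitial fibroblasts it was 2.35 and 4.85 CPM (1.05, 0.21 to 1.93) and in club cells 1.11 and 2.38 CPM (1.11, -0.08 to 2.46). AT2 cells had 5.79 and 8.70 CPM. All these levels lie below those of near-empty barcodes in this pair (32.4 and 28.6 CPM). The part of free RNA in them was not tested. Of 38 combinations in the Hgf pair none was higher and 7 were lower, beside 6.51 and 7.25%. In the Nodal pair none of 27 was higher and 6 were lower, beside 2.32 and 2.95%. The control lungs, which differ by no deletion of the kind studied, gave 3 higher and 8 lower of 50 (Hgf over Bdnf), beside 5.18 and 7.59%. The median log2 ratio over the combinations was -0.08, -0.13, -0.18 and -0.15 in the same order. The control lungs thus had 11 of 50 combinations past 2-fold, against 10 of 65 in the Bdnf pair, 7 of 38 in the Hgf pair and 6 of 27 in the Nodal pair. The Bdnf and Hgf controls also differ in median depth (7118 and 3911 UMIs) and in the depth limit for cells. Their count therefore does not measure the spread within a pair. Of the 7 lower in the Hgf pair, 4 were Ntrk2 (in general capillary, arterial, unresolved endothelial and AT2 cells). Of the 6 lower in the Nodal pair 3 were in pericytes (Bdnf, Ntrk2 and Ngfr), where the Bdnf log2 ratio changed sign with Leiden clusters (0.93).

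Other genes of the pathway were read from lists of 55 genes that cover other ligands and receptors, precursor processing, receptor adaptors and ERK response genes. In general capillary cells of the Bdnf pair, 3 of 43 measured genes were at least 2-fold higher and none lower, beside 2.6 and 2.03% of all genes. Among those were Arc, an immediate early gene (1.76 against 6.09 CPM), and Lingo1 (0.839 against 1.71 CPM). For the Hgf pair 4 of 40 were higher and 2 lower, beside 5.64 and 7%. Dusp6, a phosphatase induced by ERK, was 453 CPM in the control but 166 CPM in the Hgf iPCKO (log2 ratio -1.44, -1.56 to -1.33), whereas Spry1, another ERK response gene, was 65.4 and 231 CPM (1.82, 1.64 to 2.00). Of the 12 ERK response genes measured there, 2 were higher and 1 lower.

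In AT1 cells, 4 of 43 pathway genes were higher and 1 lower in the Bdnf pair, beside 5.58 and 1.29% of all genes, with Dusp6 at 56.3 and 132 CPM. In the Hgf pair 3 of 41 were higher and 2 lower, beside 7.46 and 5.85%. Sorl1, a relative of sortilin, was 457 and 226 CPM there (log2 ratio -1.02, -1.13 to -0.91). In adventitial fibroblasts 1 of 46 was higher and 2 lower in the Bdnf pair, beside 3.98 and 1.31%. In the Hgf pair 1 of 41 was higher and 9 lower, beside 9.82 and 10.3%. In cortical astrocytes 5 of 44 were higher and none lower in the Nodal iPCKO, beside 1.9 and 2%, and all 5 are ERK response genes. Egr1 was 479 and 1002 CPM, Egr2 6.83 and 24.8 CPM and Spry1 43.2 and 106 CPM. Over the 14 ERK response genes measured the median log2 ratio was 0.83, against 0.13 over all 44 genes of the lists and 0.0057 over all genes tested. The median of the ERK response genes was also above 0 in the Bdnf pair, at 0.53 in general capillary cells, 0.58 in AT1 cells and 0.27 in adventitial fibroblasts. In the Hgf pair it was -0.23, 0.21 and 0.15 in the same types. The median of all genes tested lay between -0.06 and 0.09 in these 6 comparisons. The lists were chosen with earlier results of these data known, and the paper reports Egr1 as raised in astrocytes of the Nodal iPCKO. The medians are therefore no independent evidence about the pathway, and what moved these genes was not tested.

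Ntf5 (neurotrophin 4), another ligand of TrkB, had 13.1 (11.3 to 15.1) CPM in AT1 and 12.3 (11.5 to 13.3) CPM in AT2 cells of the Bdnf control. Of the enzymes that cut precursors, Furin was found at 63.5 CPM in AT1 cells, 60.3 CPM in myofibroblasts, 50.1 CPM in smooth muscle cells and 66.7 CPM in pericytes of the Bdnf control. Pcsk5, another convertase, was 1033 (1001 to 1065) CPM in myofibroblasts and 30.5 CPM in AT1 cells there. In the Hgf control it was lower, at 426 (348 to 516) CPM in myofibroblasts and 19.1 CPM in AT1 cells. Plat, the tissue plasminogen activator, was 591 (556 to 628) CPM in pericytes of the Nodal control cortex and 91.5 CPM in vascular smooth muscle cells.

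The genes most like each member were taken over 15 lung types of at least 50 cells in both control lungs (30 points), by Pearson's r of log2(CPM + 1) among 11536 genes. For Bdnf these were Scx (0.83), Wrnip1 (0.83) and Ddc (0.81), and for Ntrk2 Adam23 (0.87), Col15a1 (0.77) and Fap (0.76). For Ntrk3 they were Mrgprf (0.96), Mark1 (0.94) and Aspn (0.94), the last a marker used to name cells, and for Sort1 Ctnnd2 (0.85), Mettl7a1 (0.80) and Trpm6 (0.77). The points share libraries and depth, so these values describe likeness of pattern alone. Ngfr did not reach 20 CPM in these types and was not compared.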

How the data were processed

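Single-cell RNA of 4 lung and 2 cortex libraries was analysed, each from about 40000 prepared cells (BD Rhapsody whole-transcriptome assay). The authors aligned reads with STARsolo (STAR 2.7.10a) to GRCm39 with a Gencode annotation and deposited matrices of estimated counts of UMIs per gene and barcode, without normalization or cell filter, in which reads that match several genes are shared between them. Of the entries, 8.50 to 9.95% were not whole numbers, and they were rounded for intervals. The 6 genes and all lists and settings were chosen with earlier results of these data known.

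Each kept barcode was scored for marker sets of 20 lung or 13 cortex types and took the best type when at least 3 of its markers (2 for an endothelial subtype) were found. Barcodes with markers of several lineages were set aside. Doublets called by Scrublet (0.834 to 9.5% of barcodes) were kept, and removed in an alternative. UMIs were summed per library and type. Ratios carry the conditional exact 95% interval and shares the Clopper-Pearson interval (scipy 1.17.1). A count of 0 was set to 3 UMIs for a ratio. Thinned shares are those expected at 1500 UMIs per cell, or 700 in the Hgf pair. Genes whose UMIs over a pair of libraries came to 20 or more were called at 2-fold. For the shares of all genes 0.5 was added to each count, but not for members and pathway genes. The ratio script was tested on simulated data. Named genes were the 6 members in every type of at least 20 cells, pathway genes past 2-fold (at most 10 per comparison) and the 3 genes most like a member. Types under 20 cells, processing enzymes, another ligand and the genes of the Ngfr barcodes were named after their values were seen. Some genes of the lists are counted but their values are not reported here. Alternatives changed the gate, the depth limit, doublets, mitochondrial share, fractional entries, clusters (Leiden, scanpy 1.11.5) and scaling. Depth after filtering was 30212900 to 153477398 UMIs per library.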

Additional observations from a re-analysis of the deposited data

Results flagged for a closer look

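In 4 cases a gene went opposite ways in the Bdnf and the Hgf lung pair, with intervals that exclude 0 in both. In general capillary cells the log2 ratio of Ntrk2, mutant over control, was 0.23 in the Bdnf pair and -1.68 in the Hgf pair. In endothelial cells whose subtype was not resolved the ratios of Ntrk2 were 0.97 and -2.50, and in AT2 cells 0.72 and -1.31. For Sort1 in AT2 cells they were -0.15 and 0.20. Each group is 1 library, so the differences between the pairs were not tested. Between the control lungs (Hgf over Bdnf) the log2 ratios of Ntrk2 were 0.58 in general capillary cells, 0.96 in unresolved endothelial cells and 0.26 in AT2 cells, and that of Sort1 in AT2 cells was -0.13. Near-empty barcodes of the Hgf pair also had less Ntrk2 in the mutant (15.6 and 5.23 CPM).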

How the results depend on the processing

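Over 18 values and 153 alternatives, 137 moved by less than counting error, and 16 moved by more, of which 2 changed sign. By over 1.5-fold 4 moved, 1 of them within counting error. Bdnf in cortical pericytes of the Nodal pair (log2 ratio -1.30) turned to 0.93 with Leiden clusters, and the cause was not tested. In the Bdnf pair, Bdnf in pericytes (-1.83) turned to 0.29 with mixed lineages kept and was -0.22 with Leiden clusters, in smooth muscle cells (-0.65) -1.83 with Leiden clusters, and in AT1 cells (-0.22) -0.31 with mixed lineages kept and -0.13 with Leiden clusters. With Leiden clusters, the log2 ratio of Ntrk2 in astrocytes (0.14) was 0.27. In the control libraries, Bdnf in AT1 cells (189 CPM) was 179 with mixed lineages kept, 203 with whole-number entries only, 201 without Scrublet doublets and 171 with Leiden clusters. With whole-number entries only, Ntrk2 was 265 CPM in adventitial fibroblasts (244) and 1230 CPM in astrocytes (1116), where Leiden clusters gave 990 CPM. Ntf3 in smooth muscle cells (110 CPM) was 79.2 with Leiden clusters, Bdnf in smooth muscle cells (57.8) 42.1 with a mitochondrial share of at most 20%, and Ntrk2 in general capillary cells (44.1) 40.0 at a minimum of 3000 UMIs. The log2 ratios of Ntrk2 in general capillary cells of the Bdnf pair, the Hgf pair and the control lungs stayed within counting error under all alternatives run. Counting unresolved endothelial cells with the other subtypes, an alternative chosen after seeing the data, moved the log2 ratio of Ntrk2 in general capillary over other endothelial cells from 2.62 to 2.20 in the Bdnf control, 2.71 to 1.97 in the Bdnf iPCKO, 3.16 to 2.28 in the Hgf control and 2.53 to 2.18 in the Hgf iPCKO. With at least 50 UMIs in place of 20, 11 of 28 pathway and background values moved. The shares of all genes higher and lower then were 1.25 and 1.16% in general capillary cells, 3.27 and 0.723% in AT1 cells, 2.01 and 0.741% in adventitial fibroblasts (all Bdnf pair) and 0.997 and 0.68% in astrocytes. Pathway genes lower in adventitial fibroblasts of the Bdnf pair were 1 in place of 2, and in AT1 cells of the Hgf pair 1 was higher in place of 3 and 1 lower in place of 2. Depth limits above all pericytes and Ngfr, most of whose values rest on under 20 UMIs. No paired analysis was possible because each group has 1 library. No replicate could be left out for the same reason.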
